A study of Mus musculus with 6 samples.

Results

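The transcripts of the TGF-beta and BMP pathway described here are those of 31 genes fixed by name: ligands and the proteins that keep them latent, receptors and co-receptors, Smads, Smad corepressors, a feedback inhibitor and the Id genes. Probes were taken by the gene symbol of the platform table, and each gene was represented by its brightest probe, the one with the highest mean log2 intensity over the 6 arrays. Of the 31 genes, 30 had at least 1 probe among the 21946 genes named on the array, and Smad4 is not analysed here. A filter that kept the brighter 50% of the probes left 26 of these 30 in the 12764 genes tested, and Bmp4, Bmpr1a, Smad6 and Smad7 fell below it.

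The cells were haematopoietic stem cells of Matn4-/- mice (3 arrays) and of wt mice (3 arrays), sorted by flow cytometry as LSK CD150+ CD48- cells, from female C57/BL6 mice given as 12 weeks old. Matn4-/- marrow carried the CD45.2 form of the leukocyte antigen CD45 and wt marrow both CD45.1 and CD45.2, so the groups differ at that locus as well as in Matn4. Equal parts of both marrows had been given together to CD45.1 recipients irradiated with 2 doses of 500 rad, and the stem cells of both genotypes were recovered 4 weeks later. The design text names 3 biological replicates per genotype, and nothing says whether they came from separate recipients, so p-values measure the spread between these samples, which may be technical. RNA was amplified from 2.5 ng. The question was how loss of Matn4, the gene of the matrix protein matrilin-4, affects expression in transplanted stem cells.

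TGF-beta ligands are secreted in a latent complex, bound through latent TGF-beta binding proteins to the matrix, and must be released before they act. A type II receptor then phosphorylates a type I receptor, which phosphorylates receptor Smads: Smad2 and Smad3 downstream of TGF-beta and activin, and Smad1 and Smad5 downstream of BMP. These join Smad4, enter the nucleus and switch targets, among them the Id genes and the inhibitory Smads, which feed back on the pathway. In bone marrow, TGF-beta is known for holding stem cells in quiescence.

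Direct Smad targets among the members include the Id genes and inhibitory Smads, none of which was above background on all arrays. Parts of the promoters of Smad6, Id2 and Id3 are shown as examples, with sequences known to be bound by Smads in capitals. They are from the RefSeq promoter table (GRCm38.p6, 250 bases before to 50 after each gene's start). The Smad6 stretch is chr9:64022040-64022159 on the minus strand, the Id2 stretch chr12:25096243-25096342 on the minus strand and the Id3 stretch chr4:136143637-136143776 on the plus strand. Each is written 5′ to 3′ along its gene:
Smad6: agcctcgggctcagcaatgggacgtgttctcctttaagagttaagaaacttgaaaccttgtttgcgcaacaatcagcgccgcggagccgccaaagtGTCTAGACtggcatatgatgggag
Id2: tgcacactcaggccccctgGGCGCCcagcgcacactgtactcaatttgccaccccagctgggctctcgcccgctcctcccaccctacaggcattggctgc
Id3: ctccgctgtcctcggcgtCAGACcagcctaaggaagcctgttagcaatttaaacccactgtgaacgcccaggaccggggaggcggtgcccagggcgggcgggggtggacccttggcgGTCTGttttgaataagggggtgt

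The Smad6 stretch holds the palindrome GTCTAGAC, which begins 4 bases before the annotated start. This palindrome occurs in 0.213% of the 32851 promoter windows in the table. The Id2 stretch holds GGCGCC, a GC-rich element bound by BMP Smads, from 231 bases before the start, and 11.9% of all windows hold it. The Id3 stretch holds the short Smad box on both strands, as CAGAC from 167 bases and as GTCTG from 68 bases before the start, and 49.6% of windows hold that box. Searches covered both strands, and GTCTAGAC and GGCGCC read the same on each. A further GC-rich element, GCCGNCGC, was also searched for; 9.76% of windows hold it and the windows of these 3 genes do not. Windows of other members hold GGCGCC too, such as those of Bmpr1a, Bmpr2 and Ski, and others the Smad box, such as those of Eng, Acvr2a and Tgfb2. A match describes the letters, does not mark a gene as a target and is no evidence of binding.

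Whether a probe read above background was judged on each array against the 1524 probes of olfactory and vomeronasal receptors, genes of sensory neurons. The background level was the 95th percentile of those probes, which lay between 126 and 135 on the 6 arrays. Intensities are the authors' normalised linear values, in which background is still present, so a fold change understates a difference in a dim gene. Where at least 1 genotype had no array above background, no fold is given in the account of that gene. Folds are given for genes above background on only some arrays of both genotypes, such as Tgfb3, Id1 and Id2, and these are close to background. Levels of different probes are not comparable with each other. Of the 30 members, 11 were above background on all 6 arrays, 15 on some arrays and 4 on none. Among all 21946 genes named on the array, 29.1% were above background on all 6 arrays and 56.9% on at least 1. With 6 arrays in all, precision is limited by their number. In these sorted pools, fewer cells that express a gene and less of its RNA per cell cannot be told apart.

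**Figure D1:**
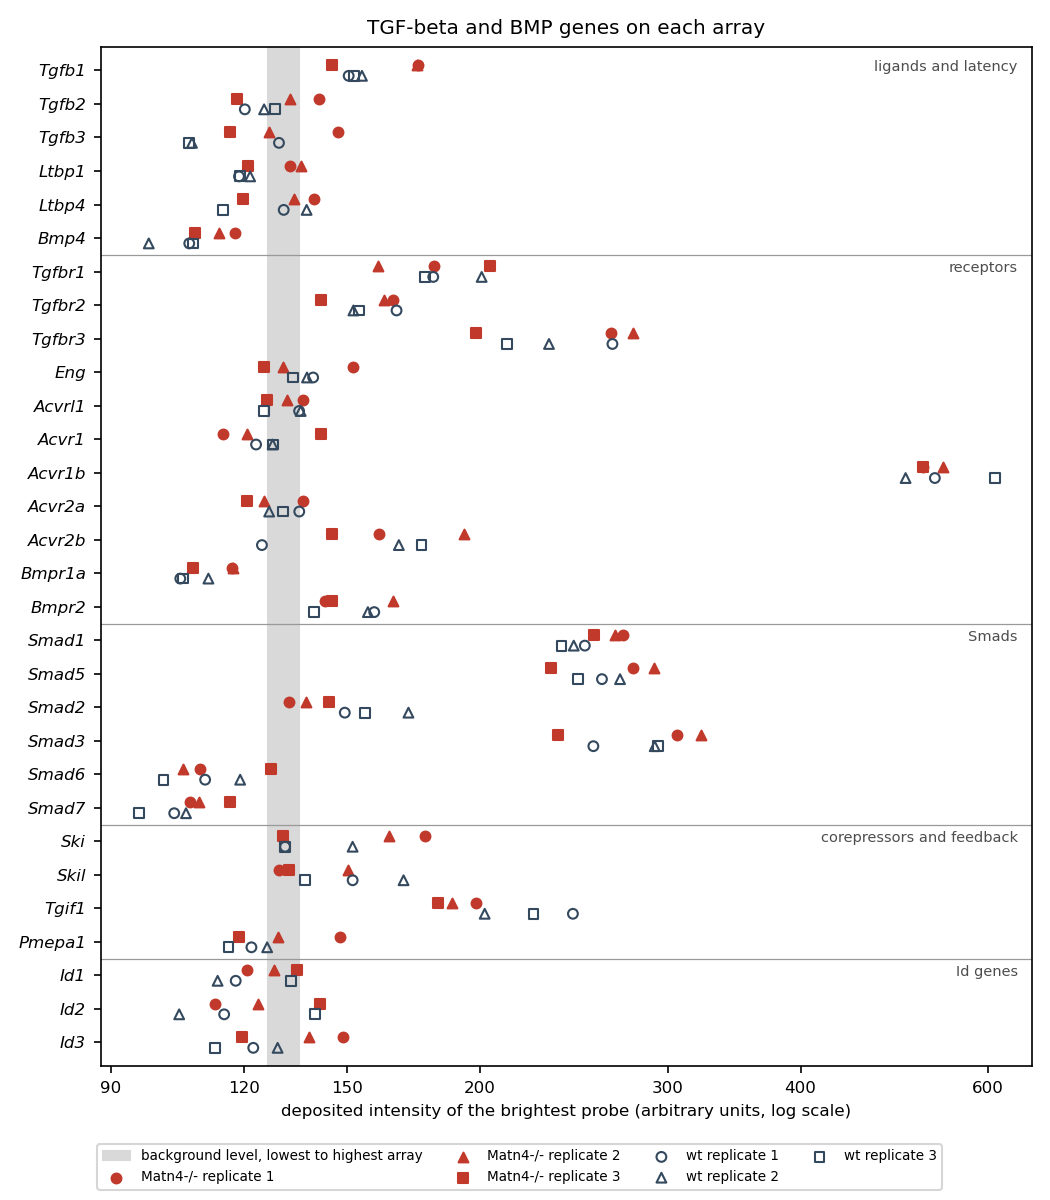
Deposited intensity (log axis, arbitrary units) of the brightest probe of each of the 30 members on the 3 Matn4-/- arrays (filled) and the 3 wt arrays (open); the grey band spans the background levels of the 6 arrays, 126 to 135. Receptors of TGF-beta, Acvr1b, Smad1, Smad5, Smad3 and Tgif1 lie to the right of the band on every array, while Bmp4, Bmpr1a, Smad6 and Smad7 lie below their own array's background level on every array.

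Stem cell markers were detected. Of 10 such genes with a probe, 8 were above background on all 6 arrays. Among them were Slamf1 (CD150) and Kit, which were part of the sort, and Procr and Mecom, which were not. Fgd5 was above background on 2 Matn4-/- and 3 wt arrays, and Hlf on 1 Matn4-/- array alone. The summed intensity of the 10 was 2459 to 2943 in Matn4-/- cells and 2721 to 2853 in wt cells. Matn4 itself read 168, 318 and 331 in the cells labelled Matn4-/-, against 310.3, 158 and 378 in wt cells, and since no source used here places its probe relative to the deletion, it does not check the genotype. Endothelial and stromal markers, cells in which endoglin, ALK1 and betaglycan are well known, were above background on all arrays for 2 of 12 (Vwf and Pecam1), whereas Kdr, Plvap, Lepr, Col1a2 and Lum were above it on none. Between these, Emcn, Cdh5 and Pdgfra were above background on all 3 wt arrays and on 1, 2 and 1 Matn4-/- arrays. Col1a1 and Cxcl12 were above it on 1 Matn4-/- array alone. The sums of the 12 were 1491 to 1677 in Matn4-/- cells and 1568 to 1598 in wt cells. Megakaryocyte and platelet markers, which include a classic source of TGF-beta1, were above background on all arrays for 6 of 11, with sums of 1882 to 1980 in Matn4-/- cells and 1933 to 2144 in wt cells. Markers of maturing and lineage cells were detected in part, and several lists varied widely between arrays. Neutrophil markers were above background on all arrays for 4 of 10 (S100a8 and Ltf on none), with sums of 1865 to 2517 in Matn4-/- cells and 1688 to 2466 in wt cells. Mast cell and basophil markers were so for 2 of 9 (Tpsb2, Gzmb and Ms4a2 on none), with sums of 1308 to 1911 in Matn4-/- cells and 1224 to 1628 in wt cells. Erythroid markers were so for 6 of 9, with sums of 2506 to 3326 in Matn4-/- cells and 2265 to 3269 in wt cells. Monocyte, macrophage and dendritic cell markers were so for 3 of 12 (Csf1r, Ccr2 and Cx3cr1 among those on none), with sums of 1764 to 2006 in Matn4-/- cells and 1764 to 1813 in wt cells. Lymphoid markers were so for 4 of 10 (Cd3e, Cd3d, Pax5 and Il7r among those on none), with sums of 1388 to 1418 in Matn4-/- cells and 1429 to 1487 in wt cells. The part of such cells in the values below was not tested.

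One array, Matn4-/- replicate 3, was unlike the rest, chiefly among dim probes. Its mean Spearman correlation with the others over the dimmer 50% of probes was 0.147, against 0.472 to 0.487 for the other 5 arrays. Over the brighter 50%, which hold the tested members, it was 0.780, close to 0.796 for Matn4-/- replicate 1. The wt arrays and Matn4-/- replicate 2 stood at 0.830 to 0.837 there. Matn4-/- replicate 3 also had the lowest marker sums of all 6 arrays for stem cell (2459), endothelial and stromal (1491) and megakaryocyte (1882) markers. Its sums were the highest for neutrophil (2517), mast cell (1911), erythroid (3326) and monocyte (2006) markers. The highest wt sums came close for neutrophil (2466) and erythroid (3269) markers, and less so for mast cell (1628) and monocyte (1813) markers. Single bright genes weigh most in such sums, as Mpo (1114), Hbb-b1 (1456) and Mcpt8 (538) on this array. The part of these cells in the member values was not tested. Where the printed fold change of a gene's brightest probe moved by over 1.5 times or changed sign without that array, it is also given without it. A member's value on an array can be set against its own mean over the 6 arrays on the log2 scale. The median member stood at 0.08, 0.05 and -0.10 on Matn4-/- replicates 1 to 3, against -0.02, 0.01 and -0.05 on wt replicates 1 to 3. Replicate 3 of Matn4-/- was the lowest of the 6 arrays for 10 of the 26 tested members, and Matn4-/- replicate 1 the highest for 11. The median over all 12764 genes was 0.02, 0.0045 and -0.05 on Matn4-/- replicates 1 to 3, and -0.0036, 0.0040 and 0.0014 on wt replicates 1 to 3. The members' median lay below it on replicate 3 of each genotype and on wt replicate 1.

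**Figure D2:**
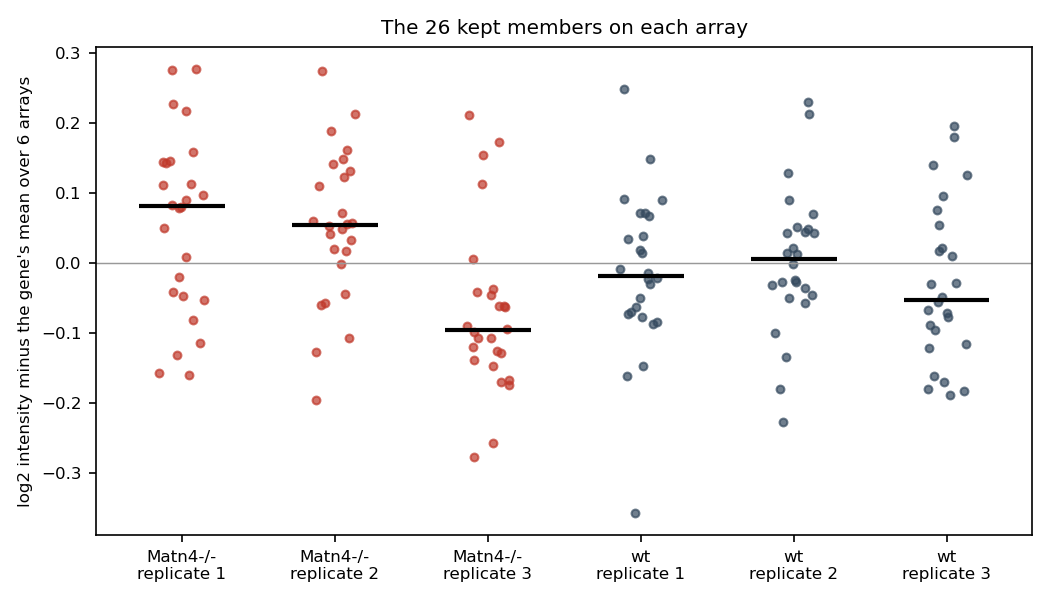
Log2 intensity of each of the 26 tested members minus its mean over the 6 arrays, with 1 point per gene and a bar at the median of each array. The bars lie at 0.08 and 0.05 on Matn4-/- replicates 1 and 2 and at -0.10 on Matn4-/- replicate 3, against -0.02, 0.01 and -0.05 on the 3 wt arrays.

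Between genotypes, no member passed the test. With limma and Benjamini-Hochberg adjustment over the 12764 genes, 0 of 26 members had an adjusted p under 0.05, and the smallest was that of Tgif1 (adjusted p = 0.837). Over all genes 0.0548% passed. At an unadjusted p under 0.05 stood 2 members, Smad2 and Tgif1, both lower in Matn4-/- cells, and 5.59% of all genes reached that level (1.78% higher and 3.81% lower). That count was 0 after quantile normalization, with an intensity trend in the fit, without wt replicate 3 and without Matn4-/- replicate 2. The groups did not overlap for 3 of the 26, with Smad1 higher and Smad2 and Tgif1 lower in Matn4-/- cells, against 10.5% of all genes (4.29% higher and 6.22% lower). With 3 arrays against 3, an exact permutation test cannot go below p = 0.10. The log2 fold change, Matn4-/- over wt, was above 0 for 15 members and below 0 for 11 (46.7% of all genes were above 0), with a median of 0.04 against -0.01 over all genes. Tgfb2, Ltbp1, Acvr1 and Pmepa1, above background on no wt array, are part of these counts and of those below. After quantile normalization the split was 18 and 8. For the 11 members above background on all arrays, the fold changes ran from -0.23 (Tgif1) to 0.18 (Ski). Their 95% intervals, as changes in intensity, differ from gene to gene, with the lowest end at -26.2% (Tgif1) and the highest at 37.6% (Ski).

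**Figure D3:**
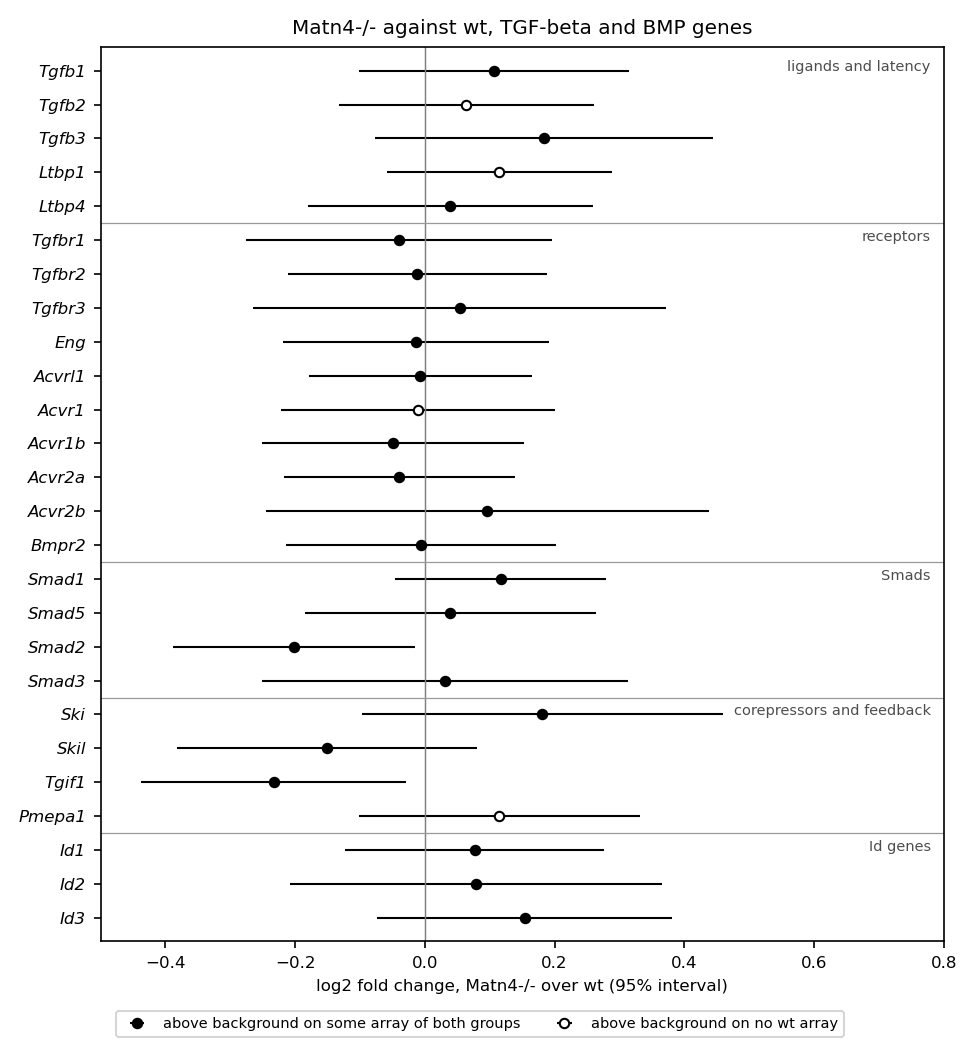
Log2 fold change of the 26 tested members, Matn4-/- over wt, with the 95% interval of the limma fit; open points mark genes that were above background on no wt array. The intervals of Smad2 and Tgif1 lie below 0 before adjustment, and those of the other 24 cross it.

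Among the ligands, only Tgfb1 was above background on all 6 arrays. Tgfb1, the TGF-beta form made by most blood cells, read 175, 175 and 145 in Matn4-/- cells, against 150.5, 155 and 152 in wt cells. The first 2 Matn4-/- arrays lay above all wt arrays and the third below them. Its log2 fold change was 0.11 ± 0.09 (SE, limma adjusted p = 0.991), and without Matn4-/- replicate 3 it was 0.20 (adjusted p = 0.668).

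Tgfb2 and Tgfb3, the other TGF-beta forms, were near background. Tgfb2 read 141, 132 and 118 in Matn4-/- cells, above background on 2 arrays, against 120.2, 125 and 128 in wt cells, above it on none. Its Matn4-/- mean of 131 lay within the range of background levels. As no wt array was above background, no fold is given (limma adjusted p = 0.999). Tgfb3 read 147, 127 and 116 in Matn4-/- cells, against 129, 107 and 107 in wt cells, and 1 array of each genotype was above background. Its groups overlapped, with a log2 fold change of 0.18 ± 0.11 (SE; adjusted p = 0.960 in limma). Bmp4, a BMP ligand of the embryonic blood-forming mesoderm and of marrow stroma, was above background on no array, at 118, 114 and 108 in Matn4-/- cells, against 107, 97.7 and 107 in wt cells. No fold is given for it.

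The latent TGF-beta binding proteins were dim as well. Ltbp1 has 7 probes, the largest number of any member. Its brightest read 133, 136 and 121 in Matn4-/- cells, with 1 array above background, against 119, 122 and 119 in wt cells, with none. Its Matn4-/- mean of 129.8 lay within the range of background levels. As no wt array was above background, no fold is given (limma adjusted p = 0.970). Ltbp4 read 139, 134 and 119.8 in Matn4-/- cells, against 131, 137 and 115 in wt cells, overlapping groups with 2 arrays of each above background. Its log2 fold change was 0.04 ± 0.10 (SE, limma adjusted p = 0.999), and 0.10 without Matn4-/- replicate 3.

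Receptors of the TGF-beta branch were detected throughout. Tgfbr1, the type I receptor, read 181, 160.2 and 204 in Matn4-/- cells, against 181, 201 and 177 in wt cells. The Matn4-/- arrays held both the lowest and the highest value, and the log2 fold change was -0.04 ± 0.10 (SE, limma adjusted p = 0.999). Without Matn4-/- replicate 3, Tgfbr1 stood at -0.13 (log2). Tgfbr2, the type II receptor that binds the ligand first, read 166, 162 and 142 in Matn4-/- cells, against 167, 152 and 154 in wt cells, at -0.01 ± 0.09 (SE, limma adjusted p = 0.999), and at 0.06 without Matn4-/- replicate 3. Tgfbr3, betaglycan, the co-receptor that presents ligand to Tgfbr2, read 265, 278 and 198 in Matn4-/- cells, against 266, 232 and 212 in wt cells. Its groups overlapped, with 0.05 ± 0.14 (SE, limma adjusted p = 0.999), and the value without Matn4-/- replicate 3 was 0.20 (adjusted p = 0.762).

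The activin receptors differed in detection. Acvr1b, the activin type I receptor ALK4, read 521, 544 and 521 in Matn4-/- cells, against 535, 502 and 609.5 in wt cells, far above background on every array. The log2 fold change of that probe was -0.05 ± 0.09 (SE, limma adjusted p = 0.999). Acvr2b, an activin type II receptor, read 161, 193 and 145 in Matn4-/- cells, all above background, against 125, 168 and 176 in wt cells, of which the first was not. Its groups overlapped, with 0.10 ± 0.15 (SE, limma adjusted p = 0.999). Without Matn4-/- replicate 3, Acvr2b stood at 0.19. The related type II receptor Acvr2a read 136, 125 and 121 in Matn4-/- cells, with 1 array above background, against 135, 127 and 131 in wt cells, with 2. Its log2 fold change was -0.04 ± 0.08 (SE, limma adjusted p = 0.999), and -0.0021 without Matn4-/- replicate 3.

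On the BMP side the type II receptor was detected and the type I receptors were not, or not throughout. Bmpr2, the type II receptor, read 143, 166 and 145 in Matn4-/- cells, against 159, 157 and 139.7 in wt cells, overlapping groups at -0.01 ± 0.09 (SE, limma adjusted p = 0.999), and 0.02 without Matn4-/- replicate 3. Bmpr1a, the type I receptor ALK3, was above background on no array, with 117, 117 and 108 in Matn4-/- cells, against 105, 111 and 105 in wt cells, and its second probe lay as low. Acvr1, the type I receptor ALK2, read 115, 121 and 142 in Matn4-/- cells, above background on the third array alone, against 123, 128 and 128 in wt cells, above it on none, and no fold is given.

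ALK1 and endoglin, known above all from endothelium, lay at the edge of detection. Acvrl1, the type I receptor ALK1, read 136, 132 and 126 in Matn4-/- cells, against 135, 136 and 125 in wt cells, with 2 arrays of each genotype above background. Eng, endoglin, a co-receptor also found on stem cells with long-term repopulating ability, read 152, 131 and 125 in Matn4-/- cells, 2 of them above background, against 139, 138 and 133 in wt cells, all above it. Both genes had a log2 fold change of -0.01 (limma adjusted p = 0.999 each), and without Matn4-/- replicate 3 Acvrl1 stood at 0.02 and Eng at 0.04. Of the 10 tested receptors, 8 had a fold change below 0 and 2 above, all between -0.05 and 0.10, and after quantile normalization Acvr1, Bmpr2 and Tgfbr2 lay above 0 as well.

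Receptor Smads of both branches were detected. Smad1, of the BMP branch, read 273, 268 and 256 in Matn4-/- cells, against 251, 245 and 238 in wt cells. Every Matn4-/- array lay above every wt array, and the fit gave 0.12 ± 0.07 (log2, SE; limma adjusted p = 0.959). Its partner Smad5 read 278, 291 and 233 in Matn4-/- cells, against 260.3, 271 and 247 in wt cells, with Matn4-/- replicate 3 the lowest of all arrays. The log2 fold change of Smad5 was 0.04 ± 0.10 (SE, limma adjusted p = 0.999), and 0.14 without that array (limma adjusted p = 0.782).

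Smad2 and Smad3 serve the TGF-beta and activin branch. Smad2 read 132, 137 and 144 in Matn4-/- cells, 2 of them above background, against 149, 171 and 156 in wt cells, all above it. The groups did not overlap. Means were 138 ± 5.91 in Matn4-/- cells and 159 ± 11.3 in wt cells (SD, n = 3 each), and the log2 fold change was -0.20 ± 0.08 (SE, limma adjusted p = 0.870). With the median of the olfactory and vomeronasal receptor probes subtracted from each array first, the log2 fold change was -0.85 (limma adjusted p = 0.938). This is the member's only probe. Smad3 read 306, 323 and 237 in Matn4-/- cells, against 256, 292 and 294 in wt cells, with both extremes in Matn4-/- cells and a log2 fold change of 0.03 ± 0.12 (SE; adjusted p = 0.999 in limma). Without Matn4-/- replicate 3, Smad3 stood at 0.17 (limma adjusted p = 0.764). A second Smad3 probe, also above background on every array, went the other way, at -0.27 ± 0.10 (SE) with all arrays.

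The inhibitory Smads, which are induced by the pathway and block it, were above background on no array. Smad6, which acts mainly on BMP signals, read 109, 105 and 127 in Matn4-/- cells, against 110.3, 119 and 101 in wt cells. Smad7, which blocks both branches, read 107, 109 and 116 in Matn4-/- cells, against 103, 106 and 95.5 in wt cells. Each has 1 probe, and at this level no fold is given.

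The Smad corepressors and Pmepa1 did not share a direction, with 2 fold changes above 0 and 2 below. Tgif1, a homeodomain corepressor of Smad2 and Smad3, read 198, 188 and 183 in Matn4-/- cells, against 244, 202 and 225 in wt cells, with no overlap. Means were 189.8 ± 7.91 in Matn4-/- cells and 224 ± 21.3 in wt cells (SD, n = 3 each), and the log2 fold change was -0.23 ± 0.09 (SE, limma adjusted p = 0.837). After the same subtraction it was -0.52 (limma adjusted p = 0.994), and with the mean of its 3 kept probes -0.08 (limma adjusted p = 0.999). Ski read 178, 164 and 131 in Matn4-/- cells, against 131, 152 and 131 in wt cells, with 0.18 ± 0.12 (SE, limma adjusted p = 0.976). The first 2 Matn4-/- arrays were the highest of the 6 and the third the lowest, and without that last array the value was 0.31 (limma adjusted p = 0.580). Skil, the Ski relative SnoN, read 129, 150.3 and 132 in Matn4-/- cells, against 152, 169 and 137 in wt cells. Its groups overlapped, at -0.15 ± 0.10 (SE, limma adjusted p = 0.970). Pmepa1, a TGF-beta target that sequesters receptor Smads, read 148, 129 and 119 in Matn4-/- cells, 2 of them above background, against 122, 126 and 116 in wt cells, none above. Its Matn4-/- mean of 132 lay within the range of background levels. As no wt array was above background, no fold is given (limma adjusted p = 0.990).

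The Id genes encode helix-loop-helix proteins that cannot bind DNA and hold their partners inactive, and none of them was above background on all arrays. Id1 read 121, 128 and 135 in Matn4-/- cells, against 118, 113 and 133 in wt cells. Id2 read 113, 124 and 141 in Matn4-/- cells, against 115, 104 and 139.9 in wt cells. For both, only the third array of each genotype was above background. Id3 read 149, 138 and 119 in Matn4-/- cells, 2 of them above background, against 122, 129 and 113 in wt cells, with 1 above. Log2 fold changes were 0.08, 0.08 and 0.15 for Id1, Id2 and Id3 (limma adjusted p-values of 0.999, 0.999 and 0.968). Without Matn4-/- replicate 3, Id1 stood at 0.04, Id2 at -0.01 and Id3 at 0.24 (limma adjusted p-values of 0.953, 0.992 and 0.669).

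The effect of Matn4-/- replicate 3 on the set as a whole can be counted. Without it, 0 members passed limma at an adjusted p under 0.05 (smallest adjusted p = 0.580, that of Ski), and 4 stood at an unadjusted p under 0.05, with Tgfb1, Ski and Id3 higher and Smad2 lower, where 6.75% of all genes did (3.29% higher and 3.46% lower). Groups then did not overlap for 12 of 26 members, 9 higher and 3 lower in Matn4-/- cells, where 23.2% of all genes were apart (13.1% as higher and 10.1% as lower). Read by their brightest probes, the 9 were Tgfb1, Tgfb2, Ltbp1, Smad1, Smad5, Smad3, Ski, Pmepa1 and Id3, and the 3 were Acvr1, Smad2 and Tgif1. The median log2 fold change of the members was then 0.08, with 18 above 0, against 0.02 over all genes, of which 55.7% were above 0. Within groups, the members' SD on the log2 scale was larger in Matn4-/- cells for 17 of 26, with medians of 0.14 in Matn4-/- and 0.10 in wt cells. Of all genes, 61.9% likewise had the larger SD in Matn4-/- cells, with medians of 0.112 in Matn4-/- and 0.087 in wt cells.

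Several probes of one gene did not always read alike. The 30 members have 64 probes, 40 of them in the brighter 50%, and 10 members have more than 1 such probe. In 7 of these 10 the kept probes disagreed in the sign of the fold change. For Smad3 the second probe read 192, 197 and 162 in Matn4-/- cells, against 231, 240.0 and 196 in wt cells, a log2 fold change of -0.27 ± 0.10 (SE), where the brightest stood at 0.03. Only 1 Matn4-/- array reached above the lowest wt array on that second probe. For Smad1, a further probe at 0.19 ± 0.08 went with the brightest, and another, at -0.02 ± 0.12, did not (SE). The second kept probe of Acvr1b stood at 0.31 ± 0.18 (SE), with 226 on Matn4-/- replicate 2 and 117 to 150.3 on the other arrays. With each of the 46237 probes tested alone, no member probe passed limma (smallest adjusted p = 0.969, the brightest Tgif1 probe).

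**Figure D4:**
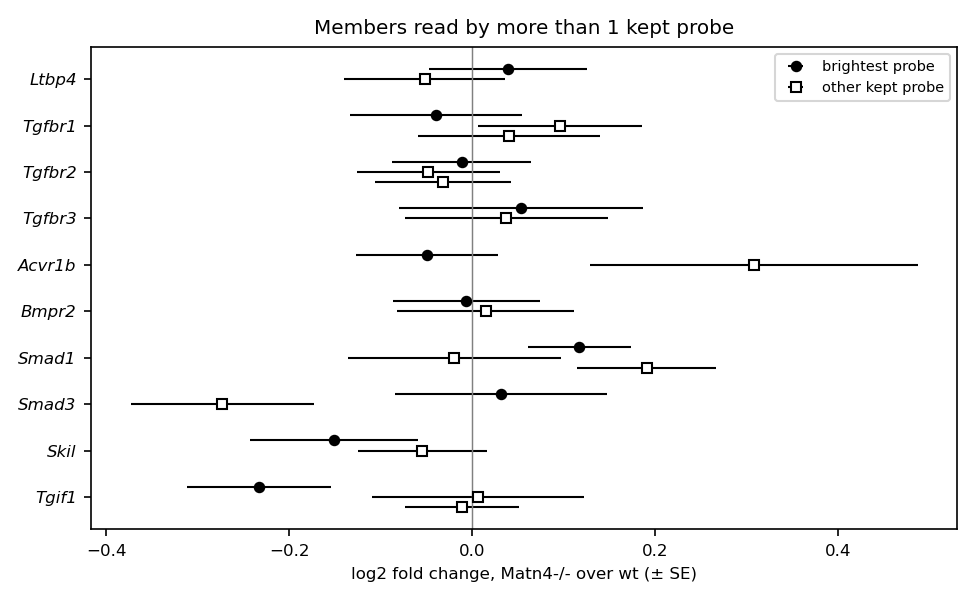
Log2 fold change ± SE, Matn4-/- over wt, of every kept probe of the 10 members that have more than 1, each probe fitted alone among all 46237; filled points are the brightest probes. The probes of Acvr1b and of Smad3 lie furthest apart, with the second Acvr1b probe at 0.31 and the second Smad3 probe at -0.27.

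Other genes of the pathway were read from lists of ligands and antagonists, of receptors, adaptors and Smad regulators, and of target genes. Of 28 further ligand, latency and antagonist genes with a probe, 3 (Fstl1, Furin and Ltbp3) were above background on all arrays and 19 on none, among the latter Bmp2, Bmp6, Nog, Chrd and Bambi. In limma 0 of the 10 tested passed, and 0 stood at an unadjusted p under 0.05, a level reached by 5.59% of all genes. The smallest p-values belonged to Inhba, Fstl1, Furin and Grem1. Fstl1, a secreted follistatin-like protein, read 359, 248 and 239 in Matn4-/- cells, against 240.1, 256 and 242 in wt cells, so its log2 fold change of 0.17 (limma adjusted p = 0.991) came with 1 high array. Furin, the protease that cleaves TGF-beta precursors, read 237, 313 and 211 in Matn4-/- cells, against 220.4, 224 and 235 in wt cells, at 0.14 (limma adjusted p = 0.996). Inhba, the activin A subunit, read 128, 119 and 134 in Matn4-/- cells, 1 of them above background, against 113, 112 and 113 in wt cells, none above, and the BMP antagonist Grem1 was above background on 1 wt array alone. For Inhba and Grem1 the level gives no fold. Without Matn4-/- replicate 3, Fstl1 stood at 0.28 and Furin at 0.27.

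Receptor adaptors and Smad regulators were the best detected of these lists, with 15 of 30 above background on all arrays, including Fkbp1a, Trim33, Ppm1a, Crebbp and Ep300. In limma 0 of the 26 tested passed, with 1 higher and 1 lower at an unadjusted p under 0.05 (1.78% and 3.81% of all genes). Of the fold changes 7 were above 0 and 19 below (median -0.03), where 46.7% of all genes were above 0. Hipk2, a kinase that binds Smads and Ski, read 134, 113 and 138 in Matn4-/- cells, 1 of them above background, against 147, 161 and 149.6 in wt cells, all above it. Its groups did not overlap (log2 fold change -0.26, limma adjusted p = 0.837), and with the mean of its kept probes the value was 0.05. Zfyve16, an endosomal Smad adaptor, read 129.8, 119 and 134 in Matn4-/- cells, 1 of them above background, against 108, 115 and 110.1 in wt cells (limma adjusted p = 0.847). Map3k7, the TGF-beta activated kinase, read 129, 126 and 134 in Matn4-/- cells, 1 of them above background, against 140.3, 141 and 140.4 in wt cells, all above it (-0.12, limma adjusted p = 0.945). Its partner Tab2 read 197, 218 and 228 in Matn4-/- cells, against 182, 204 and 203 in wt cells (0.13, limma adjusted p = 0.976, and 0.08 without Matn4-/- replicate 3).

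Of the 21 target genes with a probe, 7 were above background on all arrays (Tgfbi, Gata2, Bhlhe40, Myc, Cdkn1b, Cdkn1c and Runx1) and 9 on none, including Klf10, Hes1, Hey1 and Atoh8. In limma 0 of the 10 tested passed, with 1, lower, at an unadjusted p under 0.05 (3.81% of all genes), and 5 fold changes lay on each side of 0. Tgfbi, a secreted matrix protein named for its induction by TGF-beta, read 146, 146 and 139 in Matn4-/- cells, against 162, 155 and 187 in wt cells. Its groups did not overlap, at a log2 fold change of -0.22 (limma adjusted p = 0.868). Cdkn1a, the cell cycle inhibitor p21, read 139, 137 and 130.0 in Matn4-/- cells, all above background, against 115, 131 and 127 in wt cells, with 1 above (0.12, limma adjusted p = 0.967). Gata2 and Junb stood at -0.10 and -0.07 (limma adjusted p-values of 0.991 and 0.999), and Junb at -0.15 without Matn4-/- replicate 3. Junb was above background on 1 Matn4-/- array and 2 wt arrays.

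Among the members, 5 lie with Matn4 on chromosome 2 by the RefSeq table, namely Eng, Acvr1, Acvr2a, Pmepa1 and Id1. None of them had an unadjusted limma p under 0.05 (5.59% of all genes did) or groups that did not overlap (10.5% of all genes). At those shares, 5 genes are too few to tell them from other genes. The 7 genes that passed over all genes held no gene of the pathway lists.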

How the data were processed

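Stem cells of 3 Matn4-/- and 3 wt samples were measured on Illumina bead arrays. Per the labels' protocols, 2.5 ng RNA was amplified with a whole-transcript kit and labelled with biotin. The deposited table gives 1 linear intensity per probe and array; the authors' normalization and background steps are not stated in any source used here. A further table, with 12 value columns whose names match no label, was not used, so its planned normalization was not run. Symbols came from the platform table (35784 of 46237 probes had 1, none several, 10453 none) and were updated through Entrez identifiers (28620) or accessions (2637). Log2 values of the brighter 50% of probes, 1 probe per gene, were fitted with limma 3.58.1 in R 4.3.3 (genotype only). Benjamini-Hochberg adjustment ran over 12764 genes, with a threshold of 0.05. On simulated data with 200 changed genes, the fit recovered 78.7% of changes of log2 size 0.5, and 6.46% of calls were false. The simulation gave both genotypes the same spread and held no smaller changes, so it does not cover the sizes seen in the members. Members, lists and the rule for naming genes (all members, Matn4, and of each other pathway list the genes past the threshold or up to 4 with the smallest p) were chosen with earlier results of these data known. Files and labels used here name no slide or scan. Alternatives concerned filter, scaling, background, probe, symbols, weights, trend, block and left-out arrays. Tables were joined with pandas 2.3.3 under Python 3.11.15, and plots drawn with matplotlib 3.10.9.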

Additional observations from a re-analysis of the deposited data

How the results depend on the processing

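In all 16 alternatives 0 members passed limma (smallest adjusted p = 0.579, that of Tgif1 with array weights), as with all arrays. Genes past the threshold overall numbered 7, 1 with background subtracted, and 3 to 7 with an array left out (4 without wt replicate 1, 3 without Matn4-/- replicate 1). Members whose groups did not overlap numbered 3 of 26 (against 10.5% of all genes), and 1 with quantile normalization (against 10.6%). Without a filter they numbered 5 of 30, adding Bmp4 and Smad7, against 10.1% of all genes. With an array left out they numbered 4 to 12, where fewer arrays make separation easier. They were 5 without wt replicate 3 (against 18.7% of all genes) and 5 without Matn4-/- replicate 1 (against 22.7%). Without Matn4-/- replicate 3 they were 12 (against 23.2%), and without any other array 4 (against 18.5% to 19.9%). The cause of the shift under quantile normalization was not tested. Members above background on all arrays numbered 11, 11 against the brightest Y-linked probe, 9 against the 99th percentile, and 11 to 13 without an array. The replicate number as a block gave 9 genes past the threshold in limma and 0 members (smallest adjusted p = 0.740). Same-numbered arrays correlated at 0.0164, 0.0587 and 0.0608 in their deviations from group means, and arrays of different number at -0.0832 to 0.0211. All but 1 of 6 arrays correlated best with the array of their own number. The labels name no pairs, so the main fit has none, but these values do not decide whether the numbers mark pairs.

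Of 404 alternative values of tested members, 40 changed sign, in 13 members whose main log2 fold change was at most 0.10 in size and none of which had passed. With quantile normalization the sign changed for Acvr1 (0.0032), Bmpr2 (0.00338) and Tgfbr2 (0.013), with array weights for Bmpr2 (0.0453) and Tgfbr2 (0.015), and with the mean of kept probes for Acvr1b (0.129), Bmpr2 (0.00421), Ltbp4 (-0.0063), Smad3 (-0.121) and Tgfbr1 (0.0323). Outside the members it changed for Hipk2 with the mean of kept probes (0.0489, against -0.26 with its brightest probe) and for Matn4 with array weights (0.0412) and the mean of kept probes (0.00791). With an array left out, ranges crossed 0 for Acvr1 (-0.0994 to 0.0531), Acvr1b (-0.111 to 0.0289), Acvr2b (-0.0577 to 0.191), Acvrl1 (-0.0446 to 0.0215), Bmpr2 (-0.0736 to 0.0325), Eng (-0.097 to 0.0428), Id2 (-0.0155 to 0.196), Ltbp4 (-0.0357 to 0.103), Smad3 (-0.0556 to 0.167), Smad5 (-0.0258 to 0.136), Tgfbr1 (-0.128 to 0.0477), Tgfbr2 (-0.0544 to 0.0588) and Tgfbr3 (-0.0395 to 0.205), and outside the members for Fstl1 (-0.014 to 0.28), Furin (-0.0183 to 0.265) and Matn4 (-0.395 to 0.293). The cause was not tested. Signal near background limits 19 of the 30 members.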
